A study of Mus musculus with 9 samples.

Results

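The genes described here are 39 enzymes and enzyme subunits of 2 linked mitochondrial pathways, 19 of fatty acid oxidation and 20 of the tricarboxylic acid (TCA) cycle with its entry and exit reactions. They were taken by gene symbol from a deposited table of 56748 genes, as a list drawn up by function with earlier results of these data known. Each symbol occurred once, and all 39 passed the filter on low counts, as did 15502 genes in all. RNA sequencing covered cultured knee joint chondrocytes of wild-type (WT) mice in 3 groups of 3 libraries. Cells of the first group were given the cytokine interleukin-1β (IL-1β) and, in addition, recombinant SFRP5 (secreted frizzled related 5), those of the second IL-1β alone, and control cells neither. IL-1β provokes an inflammatory, matrix-degrading state in cartilage cells, and SFRP5 can bind Wnt proteins outside the cell. Doses, treatment times and the age of the mice are not in the labels, and no group with SFRP5 alone was analysed here. Nothing states that the libraries within a group stem from different mice or cultures, so that p-values measure only the spread between libraries, which may be technical.

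Fatty acid oxidation begins when a long-chain fatty acid is joined to coenzyme A and carried into the mitochondrion as a carnitine ester. Inside, the chain is shortened by repeated rounds of dehydrogenation, hydration, a further dehydrogenation and thiolysis, which release acetyl-CoA and pass electrons to the respiratory chain. The TCA cycle takes up acetyl-CoA from fatty acids or, through pyruvate dehydrogenase, from glucose, oxidises it to carbon dioxide and supplies citrate, 2-oxoglutarate and malate for synthesis. Chondrocytes live with little oxygen and are known for their reliance on glycolysis, and the oxidative pathways are the smaller part of their energy supply.

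Total counts per library were 15795985 to 20688963 with IL-1β + SFRP5, 17833535 to 18717286 with IL-1β and 17960438 to 20107339 in control. Single members had 17 to 4945 counts in a library. The 10 chondrocyte markers, among them Col2a1, Acan and Sox9, were all detected and summed to 27707 to 29078 CPM (counts per 1e6 counts of the scaled library) with IL-1β + SFRP5, 22029.5 to 23199.9 CPM with IL-1β and 107598 to 109941 CPM in control, and all 10 fell with IL-1β. Adipocyte markers, from a tissue rich in several of these enzymes, summed to 4.54 to 5.52 CPM with IL-1β + SFRP5, 6.38 to 7.23 CPM with IL-1β and 26.5 to 28.4 CPM in control, and 4 of 8 could be tested, all 4 lower with IL-1β than in control. Plin1, Cidec, Lep and Retn of that list were at 0 in the IL-1β libraries. The 8 skeletal muscle markers, 5 of them tested, summed to 3.54 to 5.23 CPM with IL-1β + SFRP5, 2.06 to 2.79 CPM with IL-1β and 5.08 to 7.73 CPM in control, and Ckm, muscle creatine kinase, was at 0 in the IL-1β + SFRP5 and control libraries. Of the 5 markers used for synovial fibroblasts, Prg4 and Pdpn rose with IL-1β, Thy1 and Pdgfra fell and Cd55 was not called, so that the list had no common direction, and its sum, mostly Prg4 and Pdpn in the libraries given IL-1β, was 1119 to 1152 CPM with IL-1β + SFRP5, 862 to 919 CPM with IL-1β and 188 to 190.2 CPM in control. The 8 macrophage markers, 4 of them tested and 3 of these higher with IL-1β, summed to 19 to 23.2 CPM with IL-1β + SFRP5, 28.2 to 29.9 CPM with IL-1β and 12.6 to 14 CPM in control. The 5 osteoblast markers, 3 of them tested and all 3 lower with IL-1β, summed to 0.531 to 0.716 CPM with IL-1β + SFRP5, 0.243 to 1.42 CPM with IL-1β and 21.8 to 22.1 CPM in control. The 6 neutrophil markers summed to 4.83 to 7.22 CPM with IL-1β + SFRP5, 5.83 to 7.21 CPM with IL-1β and 0 to 0.152 CPM in control; Camp and S100a8 were higher with IL-1β, and S100a9 and Ly6g were at 0 in all 9 libraries. The 5 endothelial markers, 2 of them tested and both higher with IL-1β, summed to 2.24 to 3.25 CPM with IL-1β + SFRP5, 3.33 to 4.19 CPM with IL-1β and 0.361 to 0.508 CPM in control, and the 3 erythroid markers to at most 0.101 CPM in any library. The part of these other cells in the results below was not tested, and in bulk RNA fewer cells of a type and less RNA per cell cannot be told apart.

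**Figure D1:**
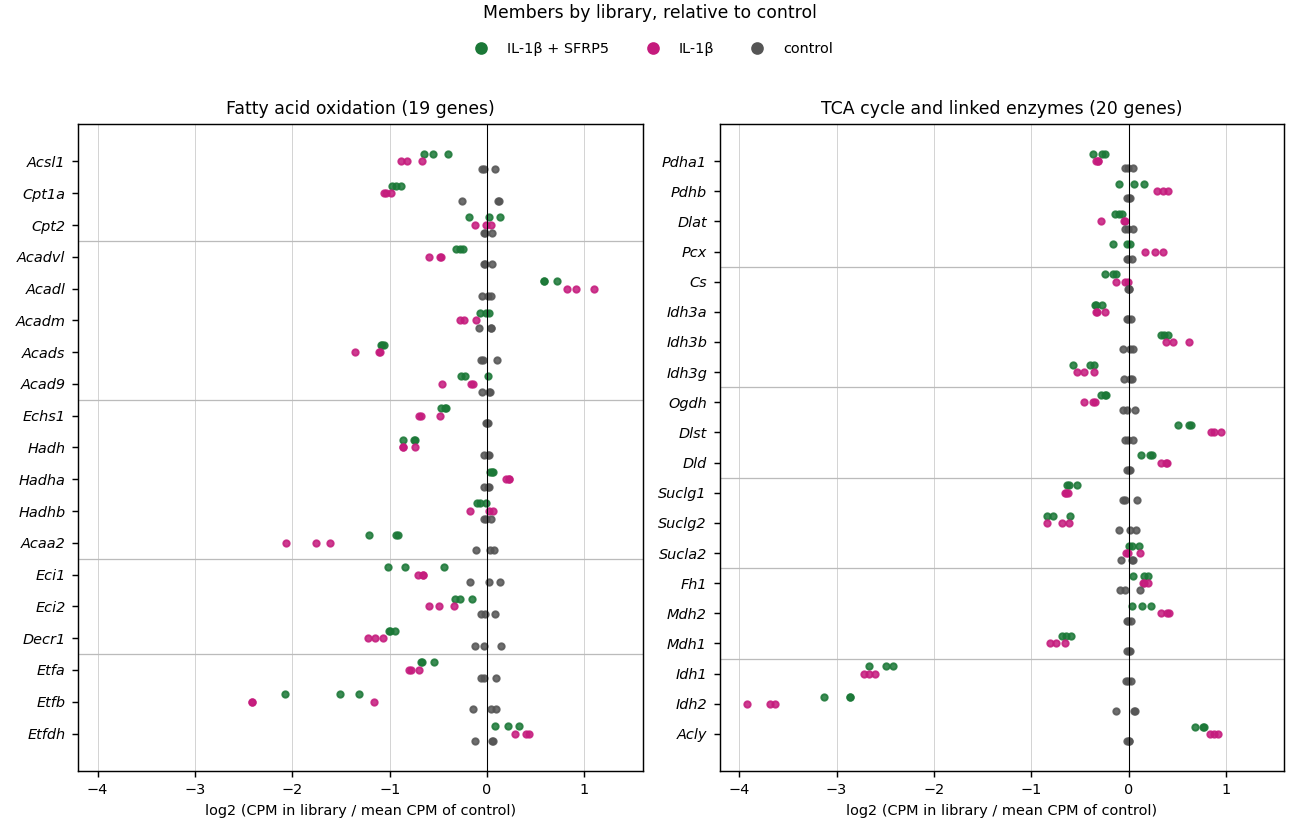
Level of each member in each library, as log2 of its CPM over the mean CPM of the control libraries (x axis), for 19 fatty acid oxidation genes and 20 TCA cycle genes (y axis, grey lines between groups of roles). Each point is 1 library: most fatty acid oxidation genes lie left of control with IL-1β and with IL-1β + SFRP5, whereas TCA cycle genes lie on both sides and Idh1 and Idh2 lie farthest to the left.

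The first comparison asked what IL-1β alone did to the 2 pathways. Fatty acid oxidation genes were mostly lower with IL-1β, and TCA cycle genes went in both directions. Of the 19 fatty acid oxidation genes 14 fell, 3 rose and 2 were not called, with a median log2 fold change of −0.61. Of the 20 TCA cycle genes 9 fell, 8 rose and 3 were not called, with a median of −0.09. The largest falls of the 39 were those of the NADP-dependent isocitrate dehydrogenases Idh2 and Idh1, and the largest rises were those of Acadl, Dlst and Acly. A call means an adjusted p below 0.05 in edgeR's quasi-likelihood test, with adjustment over all 15502 genes tested. Among all genes tested 40.4% were called lower, 38.5% higher and 78.9% in either direction, and the median was −0.03, so that a call by itself does not set a member apart. At least 2-fold lower were 7 of the 39 members and 21.2% of all genes. IL-1β and control libraries did not overlap for 35 members, 11 higher and 24 lower, against 80% of all genes, 38.8% higher and 41.1% lower. With upper-quartile scaling, which moved the median of all genes by −0.15, fatty acid oxidation had 16 genes lower and 2 higher, and the TCA cycle 11 lower and 6 higher. Cpt2, Hadhb, Dlat and Cs, not called otherwise, were called lower under that scaling (edgeR adjusted p = 0.0403, 0.014, 0.000473 and 0.000298).

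The summed level of the 19 fatty acid oxidation genes was 605.1 ± 6.97 CPM with IL-1β + SFRP5, 598.4 ± 11.1 CPM with IL-1β and 739.2 ± 11.7 CPM in control (SD, n = 3 each). For the 20 TCA cycle genes it was 1456 ± 28.3 CPM with IL-1β + SFRP5, 1568 ± 14.7 CPM with IL-1β and 1560.2 ± 9.23 CPM in control (SD, n = 3 each). In the fatty acid oxidation sum every control library lay above every library of the other groups. The sums give most weight to the most abundant genes. Acly, counted in the TCA cycle sum, averaged 240.7 CPM with IL-1β + SFRP5, 264.4 CPM with IL-1β and 143.9 CPM in control. The mean of log2 CPM weighs genes alike, so that the large falls of Idh2 and Idh1 count fully. For the TCA cycle it was 5.78 with IL-1β + SFRP5, 5.81 with IL-1β and 6.13 in control. For fatty acid oxidation it was 4.54, 4.43 and 5.00 in the same order. No test was made of these sums and means.

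Among the genes that bring fatty acids into the mitochondrion, those of activation and of the first carnitine step fell, and that of the second did not pass the test. Cpt1a (ENSMUSG00000024900), the carnitine palmitoyltransferase of the outer membrane and the regulated step of the pathway, had 13, 13.3 and 13.8 CPM in the IL-1β + SFRP5 libraries, 12.2, 12.4 and 12.9 CPM in the IL-1β libraries and 27.6, 21.3 and 27.4 CPM in the control libraries. All control libraries lay above all others, and the fall with IL-1β was 2.03-fold (log2 change −1.02 ± 0.10, edgeR adjusted p = 6.27e-10). Acsl1, which joins long-chain fatty acids to coenzyme A, averaged 22.3 ± 1.75 CPM with IL-1β and 38.6 ± 1.89 CPM in control (SD, n = 3 each; edgeR adjusted p = 6.9e-10). Cpt2, the carnitine palmitoyltransferase of the inner membrane that frees the acyl group again, had 26.1, 22.6 and 28.2 CPM in the IL-1β + SFRP5 libraries, 25.5, 26.5 and 23.6 CPM in the IL-1β libraries and 26.6, 25.4 and 25.2 CPM in the control libraries. Its 3 groups overlapped, and its change with IL-1β was −0.031 ± 0.079 on the log2 scale (edgeR adjusted p = 0.725).

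The acyl-CoA dehydrogenases, which make the first double bond and differ in the chain length they accept, split: 4 of 5 fell and 1 rose. Over all genes tested 40.4% were called lower and 38.5% higher. Acads, the short-chain enzyme, had 7.89, 7.74 and 7.79 CPM in the IL-1β + SFRP5 libraries, 7.66, 6.42 and 7.63 CPM in the IL-1β libraries and 16, 17.6 and 15.8 CPM in the control libraries. It was 2.27-fold lower with IL-1β than in control (edgeR adjusted p = 2.89e-10), with no overlap of libraries. Acadl (ENSMUSG00000026003), the long-chain enzyme, had 40.5, 44.4 and 40.3 CPM in the IL-1β + SFRP5 libraries, 47.7, 50.8 and 57.8 CPM in the IL-1β libraries and 25.9, 27.7 and 27.2 CPM in the control libraries. The 3 groups did not overlap, IL-1β libraries were the highest, and the rise with IL-1β was 1.94-fold (log2 change 0.95 ± 0.069, edgeR adjusted p = 2.47e-12). Acadvl, which starts on the longest chains at the inner membrane, changed by −0.52 ± 0.052 on the log2 scale (edgeR adjusted p = 1.89e-09). Acadm, the medium-chain enzyme, changed by −0.21 ± 0.069 (edgeR adjusted p = 0.00838) and Acad9, which also serves in the assembly of respiratory complex I, by −0.25 ± 0.093 (edgeR adjusted p = 0.017). The call for Acadm was lost without IL-1β library 1 (adjusted p = 0.0546) or 2 (0.0831) and that for Acad9 without IL-1β library 1 (0.21). Acadvl overlaps Dvl2 on the other strand, whose count was 70.3% of its own and whose log2 change was 0.23.

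Of the 5 genes for the later reactions of each round 3 fell, 1 rose and 1 was not called. The shares over all genes tested were 40.4% lower and 38.5% higher. Acaa2, the thiolase that splits off acetyl-CoA, had 9.02, 7.42 and 9.15 CPM in the IL-1β + SFRP5 libraries, 5.1, 4.12 and 5.64 CPM in the IL-1β libraries and 16, 17.6 and 18.1 CPM in the control libraries. The 3 groups did not overlap, and the level with IL-1β was 3.47-fold lower than in control (log2 change −1.79 ± 0.13, edgeR adjusted p = 1.43e-12). Hadh, the dehydrogenase for shorter hydroxyacyl chains, changed by −0.82 ± 0.054 on the log2 scale and Echs1, a hydratase, by −0.61 ± 0.060 (edgeR adjusted p = 3.15e-13 and 8.75e-10). Echs1 overlaps Paox on the other strand, whose count was 13.4% of its own and whose log2 change was −0.85.

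Hadha and Hadhb encode the α and β subunits of the trifunctional protein, which carries out these reactions on long chains, and they are transcribed away from each other from 1 stretch of DNA. In RefSeq (GRCm38.p6) their starts have 272 bases between them on chromosome 5, and the windows from 250 bases before to 50 bases after each start share 228 bases. The Hadhb window, on the plus strand, is printed to show this, with the bases it shares with the Hadha window in capitals.
Hadhb, chr5:30155003-30155302: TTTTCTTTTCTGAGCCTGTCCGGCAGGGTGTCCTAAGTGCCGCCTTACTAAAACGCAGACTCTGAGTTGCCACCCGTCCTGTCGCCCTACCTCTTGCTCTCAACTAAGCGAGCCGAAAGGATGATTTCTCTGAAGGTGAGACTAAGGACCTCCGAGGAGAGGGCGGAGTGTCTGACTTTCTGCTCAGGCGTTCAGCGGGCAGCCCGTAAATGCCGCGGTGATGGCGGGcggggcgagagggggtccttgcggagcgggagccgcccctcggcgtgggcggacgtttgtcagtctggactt
Hadha had 116, 118 and 119 CPM in the IL-1β + SFRP5 libraries, 129.9, 133 and 133 CPM in the IL-1β libraries and 111, 115 and 115 CPM in the control libraries. Its IL-1β libraries lay above all control libraries, a rise of 0.21 ± 0.042 on the log2 scale (edgeR adjusted p = 5.17e-05) that was not called with upper-quartile scaling (0.07, adjusted p = 0.144). Hadhb had 37.2, 38.8 and 36.2 CPM in the IL-1β + SFRP5 libraries, 40.6, 34.6 and 39.5 CPM in the IL-1β libraries and 38.7, 38.1 and 40.3 CPM in the control libraries. These libraries overlapped between groups, and the change with IL-1β was −0.029 ± 0.064 (edgeR adjusted p = 0.686). The table also holds a processed pseudogene, Hadhb-ps, with 2294 counts over all libraries against 6301 for Hadhb, so the division of reads between them makes the values of Hadhb uncertain.

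The 3 auxiliary enzymes that handle double bonds already present in unsaturated fatty acids all fell, as did both subunits of the electron transfer flavoprotein. The share called lower over all genes tested was 40.4%. Decr1, the 2,4-dienoyl-CoA reductase, had 22.7, 22 and 21.8 CPM in the IL-1β + SFRP5 libraries, 18.8, 20.9 and 19.7 CPM in the IL-1β libraries and 40.2, 42.8 and 48.2 CPM in the control libraries. Every control library was above every other library, with a 2.21-fold lower level under IL-1β (edgeR adjusted p = 2.97e-13). Eci2, an enoyl-CoA isomerase, had 30.9, 31.9 and 34.7 CPM in the IL-1β + SFRP5 libraries, 27.5, 30.6 and 25.6 CPM in the IL-1β libraries and 41, 37 and 38 CPM in the control libraries. Here the control libraries were the highest too, and the log2 change with IL-1β was −0.47 ± 0.072 (edgeR adjusted p = 1.77e-06). Eci1, the other isomerase, changed by −0.68 ± 0.12 (edgeR adjusted p = 1.84e-05).

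Electrons from all acyl-CoA dehydrogenases pass to the flavoprotein made of Etfa and Etfb and on to its oxidoreductase Etfdh. Etfb, the member with the fewest counts, had 1.92, 2.21 and 1.3 CPM in the IL-1β + SFRP5 libraries, 1.03, 1.03 and 2.45 CPM in the IL-1β libraries and 5.86, 4.97 and 5.64 CPM in the control libraries. IL-1β library 3 was more than double the other 2, yet all control libraries were higher, and the fall with IL-1β was 3.6-fold (log2 change −1.85 ± 0.26, edgeR adjusted p = 6.31e-07). Etfa changed by −0.76 ± 0.060 (edgeR adjusted p = 1.67e-11). Etfdh had 40.3, 44 and 47.8 CPM in the IL-1β + SFRP5 libraries, 51.3, 50.1 and 46.5 CPM in the IL-1β libraries and 35, 39.5 and 39.7 CPM in the control libraries. This gene ran the other way, with IL-1β libraries above all control libraries and a rise of 0.37 ± 0.066 on the log2 scale (edgeR adjusted p = 1.64e-05). It overlaps 4930579G24Rik on the other strand, whose count was 12.3% of its own and whose log2 change was −1.72.

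**Figure D2:**
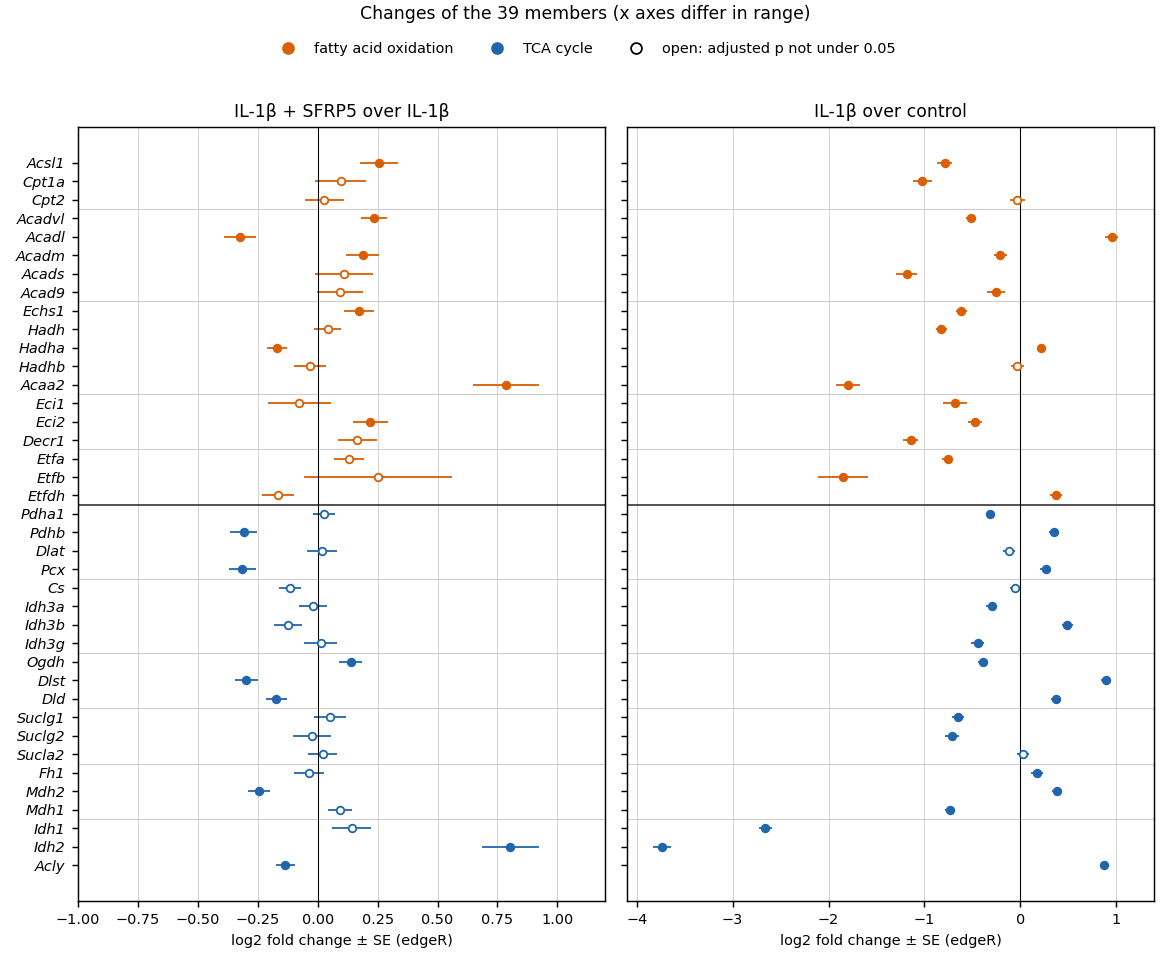
Log2 fold change ± SE of each member (x axis; ranges differ between panels), for IL-1β + SFRP5 over IL-1β and IL-1β over control. Filled points passed the test and open points did not. With IL-1β 14 of 19 fatty acid oxidation genes (orange) fell, against 40.4% of all genes tested. TCA cycle genes (blue) lie on both sides of 0.

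In the TCA cycle, subunits of the same complex moved in opposite directions. This held for pyruvate dehydrogenase, isocitrate dehydrogenase 3 and the 2-oxoglutarate dehydrogenase complex. Pdha1, the catalytic α subunit of pyruvate dehydrogenase, had 127, 129.97 and 119 CPM in the IL-1β + SFRP5 libraries, 124, 122 and 124 CPM in the IL-1β libraries and 159, 152 and 149 CPM in the control libraries. Pdhb, its β subunit partner, had 62.6, 67.1 and 56.3 CPM in the IL-1β + SFRP5 libraries, 76.7, 73.8 and 79.8 CPM in the IL-1β libraries and 60.3, 60.6 and 59.7 CPM in the control libraries. Pdha1 was lower in all IL-1β than in all control libraries (log2 change −0.32 ± 0.044, edgeR adjusted p = 5.06e-07), whereas Pdhb was higher in all of them (0.35 ± 0.055, edgeR adjusted p = 2.89e-06). Dlat, the acetyltransferase core of the complex, had 41.8, 42.5 and 40.4 CPM in the IL-1β + SFRP5 libraries, 36.6, 43.1 and 43.3 CPM in the IL-1β libraries and 44.3, 43.3 and 46.2 CPM in the control libraries. IL-1β and control libraries nearly touched, with 43.32 CPM in IL-1β library 3 and 43.34 CPM in control library 2. Dlat did not pass the test, with −0.12 ± 0.063 on the log2 scale (edgeR adjusted p = 0.0852). Pcx, pyruvate carboxylase, which makes oxaloacetate and refills the cycle, had 56.6, 50.2 and 55.6 CPM in the IL-1β + SFRP5 libraries, 71.5, 67.9 and 63.1 CPM in the IL-1β libraries and 55.3, 57.4 and 55.7 CPM in the control libraries. The rise with IL-1β was 0.27 ± 0.055 (edgeR adjusted p = 0.000114), and it was not called with upper-quartile scaling (adjusted p = 0.0507). Pcx overlaps Lrfn4 on the other strand, whose count was 24.7% of its own and whose log2 change was −1.41.

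Cs, citrate synthase, which condenses acetyl-CoA with oxaloacetate and is often used as a measure of mitochondrial content, had 112, 115 and 106 CPM in the IL-1β + SFRP5 libraries, 122, 124 and 114 CPM in the IL-1β libraries and 125, 126 and 124 CPM in the control libraries. IL-1β and control libraries overlapped, and the change was −0.058 ± 0.046 (edgeR adjusted p = 0.252). Of the 3 subunits of isocitrate dehydrogenase 3, the NAD-dependent enzyme of the cycle, Idh3b rose and Idh3a and Idh3g fell. Idh3b had 55.4, 56.7 and 58.3 CPM in the IL-1β + SFRP5 libraries, 67.9, 57.6 and 60.3 CPM in the IL-1β libraries and 44.5, 42.3 and 45.4 CPM in the control libraries. Idh3g had 34.1, 33.2 and 29.4 CPM in the IL-1β + SFRP5 libraries, 34.1, 31.7 and 30.2 CPM in the IL-1β libraries and 44.6, 42.1 and 44.1 CPM in the control libraries. IL-1β libraries did not overlap with control in either gene, with log2 changes of 0.49 ± 0.058 for Idh3b and −0.45 ± 0.066 for Idh3g (edgeR adjusted p = 2.66e-08 and 1.18e-06). For Idh3a, which carries the active site, the change was −0.30 ± 0.055 (edgeR adjusted p = 2.64e-05). Idh3b overlaps Nop56 on the other strand, which had 108% of its count and a log2 change of −0.19.

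In the 2-oxoglutarate dehydrogenase complex the E2 and E3 subunits rose and the E1 subunit fell. Dlst (ENSMUSG00000004789), the succinyltransferase E2, had 130.5, 129 and 119 CPM in the IL-1β + SFRP5 libraries, 150.5, 162 and 153 CPM in the IL-1β libraries and 86.3, 83.2 and 81.6 CPM in the control libraries. The 3 groups did not overlap, IL-1β libraries were the highest, and the rise with IL-1β was 1.85-fold (log2 change 0.89 ± 0.048, edgeR adjusted p = 4.83e-15). Ogdh, the substrate-binding E1, had 91, 91.4 and 88.6 CPM in the IL-1β + SFRP5 libraries, 83.7, 84.6 and 78.2 CPM in the IL-1β libraries and 106, 104 and 113 CPM in the control libraries. It was lowest with IL-1β and highest in control, again without overlap, and its change with IL-1β was −0.39 ± 0.048 (edgeR adjusted p = 5.5e-08). Dld, the E3 that this complex shares with pyruvate dehydrogenase, changed by 0.37 ± 0.045 (edgeR adjusted p = 5.31e-08).

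Succinyl-CoA ligase pairs an α subunit with a β subunit specific for GDP or for ADP. Suclg2, the GDP-specific β subunit, had 28.2, 25 and 23.9 CPM in the IL-1β + SFRP5 libraries, 23.9, 28.1 and 26.6 CPM in the IL-1β libraries and 39.9, 43.3 and 45.2 CPM in the control libraries. Sucla2, the ADP-specific one, had 43, 44 and 46.4 CPM in the IL-1β + SFRP5 libraries, 42.7, 46.6 and 42.2 CPM in the IL-1β libraries and 40.6, 44.3 and 44 CPM in the control libraries. Suclg2 was lower in all IL-1β libraries than in control (log2 change −0.71 ± 0.075, edgeR adjusted p = 3.72e-09), while Sucla2 libraries overlapped (0.028 ± 0.059, edgeR adjusted p = 0.672). Suclg1, the shared α subunit, changed by −0.64 ± 0.062 (edgeR adjusted p = 7.4e-10). The difference between the 2 β subunits was not tested.

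The malate dehydrogenases moved apart. Mdh2, the mitochondrial enzyme that closes the cycle, had 139.99, 149 and 129.8 CPM in the IL-1β + SFRP5 libraries, 160.2, 169.5 and 167 CPM in the IL-1β libraries and 125, 129.5 and 126 CPM in the control libraries. Mdh1, the cytosolic enzyme of the malate-aspartate shuttle, had 73, 78.3 and 75.2 CPM in the IL-1β + SFRP5 libraries, 67.1, 70.1 and 74.9 CPM in the IL-1β libraries and 118, 119 and 116 CPM in the control libraries. Mdh2 rose with IL-1β by 0.38 ± 0.048 on the log2 scale and Mdh1 was 1.66-fold lower (−0.73 ± 0.048), each without overlap between IL-1β and control libraries (edgeR adjusted p = 7.53e-08 and 3.87e-13). Mdh1 overlaps Wdpcp on the other strand, with 10.6% of its count and a log2 change of 1.13. Fh1, fumarate hydratase, changed by 0.17 ± 0.063 (edgeR adjusted p = 0.0162), and this call was lost without control library 1 (adjusted p = 0.0985) or 2 (0.0626) and with upper-quartile scaling (0.737).

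Of the enzymes that handle citrate and isocitrate beside the cycle, Idh2 and Idh1 had the largest changes of the 39 members, and Acly rose. Idh2 (ENSMUSG00000030541), the mitochondrial isocitrate dehydrogenase that makes NADPH, had 9.91, 8.2 and 9.91 CPM in the IL-1β + SFRP5 libraries, 4.74, 5.81 and 5.58 CPM in the IL-1β libraries and 65.9, 75.1 and 74.6 CPM in the control libraries. Idh1 (ENSMUSG00000025950), its cytosolic and peroxisomal counterpart, had 15.1, 12.7 and 14.4 CPM in the IL-1β + SFRP5 libraries, 13.4, 12.4 and 12.8 CPM in the IL-1β libraries and 81, 82.7 and 79.98 CPM in the control libraries. In both genes all control libraries lay far above the rest: with IL-1β Idh2 was 13.3-fold lower (log2 change −3.74 ± 0.092) and Idh1 6.32-fold lower (−2.66 ± 0.067), with edgeR adjusted p of 2.48e-22 and 4.94e-22. Of all genes tested 3.34% had a more negative change than Idh2 and 6.46% than Idh1. Acly (ENSMUSG00000020917), ATP citrate lyase, which splits exported citrate into acetyl-CoA for lipid synthesis, had 244, 232 and 247 CPM in the IL-1β + SFRP5 libraries, 273, 264 and 257 CPM in the IL-1β libraries and 144, 143 and 145 CPM in the control libraries. It was highest with IL-1β, with no overlap between the 3 groups, and rose 1.84-fold (0.88 ± 0.041, edgeR adjusted p = 2.73e-16).

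The promoters of Idh2 and Acly are printed as those of the largest fall and of the most abundant gene that rose. Both windows are from RefSeq (GRCm38.p6), on the minus strand, from 250 bases before to 50 bases after the start, read 5′ to 3′ along the gene.
Idh2, chr7:80115301-80115600: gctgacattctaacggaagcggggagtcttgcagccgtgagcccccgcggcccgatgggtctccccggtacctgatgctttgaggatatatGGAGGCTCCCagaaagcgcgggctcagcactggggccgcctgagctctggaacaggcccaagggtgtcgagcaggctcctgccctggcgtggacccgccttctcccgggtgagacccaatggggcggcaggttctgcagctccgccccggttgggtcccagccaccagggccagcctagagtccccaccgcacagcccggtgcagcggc
Acly, chr11:100527951-100528250: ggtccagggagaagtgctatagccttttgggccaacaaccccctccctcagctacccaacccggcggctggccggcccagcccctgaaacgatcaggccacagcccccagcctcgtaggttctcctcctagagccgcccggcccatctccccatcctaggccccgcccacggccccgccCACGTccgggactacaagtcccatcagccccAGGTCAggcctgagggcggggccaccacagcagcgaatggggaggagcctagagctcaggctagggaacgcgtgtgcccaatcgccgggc
In the Idh2 window the capitals mark a match, on the reverse strand, to a form of the NF-κB motif (GGGA, any 3 bases, TCC). Idh2 was the only member whose window held these letters, among 35 members with a window, and 5.21% of 27025 genes with a window held them. In the Acly window the capitals mark ACGTG, the core of the hypoxia response element, on the reverse strand, and AGGTCA, the half-site of many nuclear receptors. ACGTG was found for 1 of 16 fatty acid oxidation genes and 6 of 19 TCA cycle genes with a window, and for 21.8% of all genes. AGGTCA was found for 4 of 16 and 6 of 19, and for 18.1% of all. CCGGAAG, read by ETS factors, was found for 1 of 16 and 3 of 19, and for 9.93% of all. Both strands were searched, a gene counted if any of its windows held the letters, and none of these motifs contains another. A match is a description of these letters and not evidence that a factor binds.

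**Figure D3:**
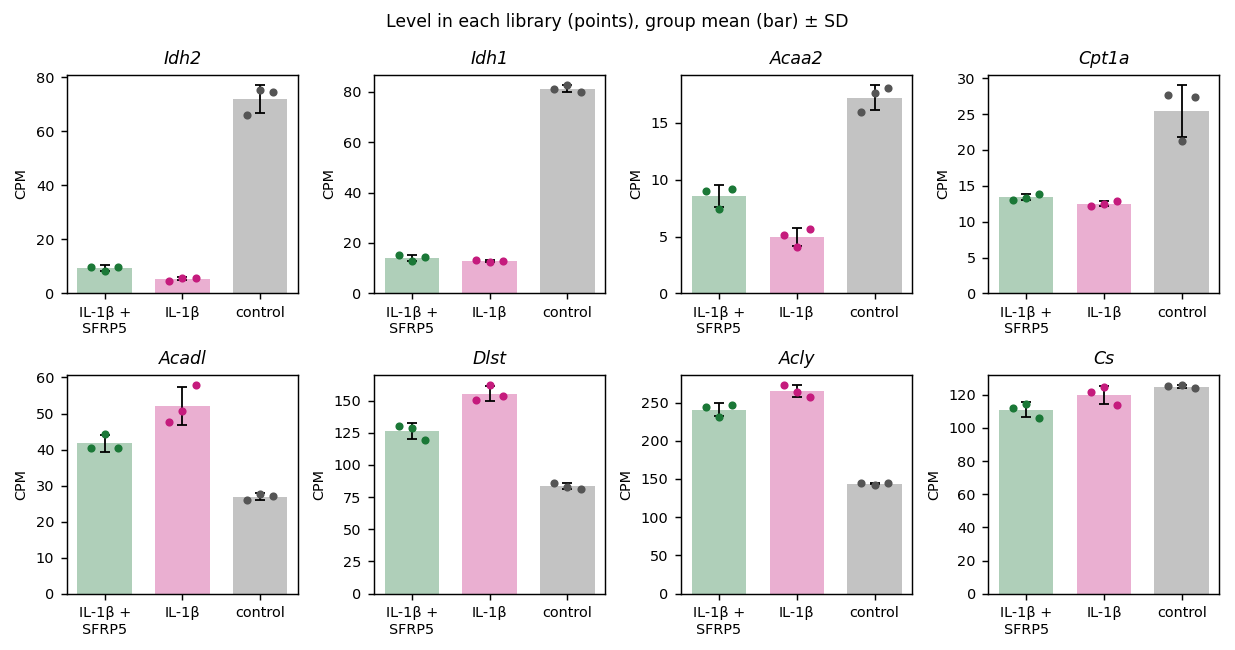
CPM of 8 members in each library (points) with the group mean (bar) ± SD (n = 3 each), y axes from 0. Idh2, Idh1, Acaa2 and Cpt1a are highest in control, and Acadl, Dlst and Acly are highest with IL-1β. For Cs, IL-1β and control libraries overlap, and those with IL-1β + SFRP5 lie below control.

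The levels of different members were compared per kilobase of the length listed in the table, which is the length of all annotated exons together. In control cells Mdh1 was highest at 44.2 ± 0.575 CPM per kb, followed by Pdha1 at 41.1 ± 1.31 and Mdh2 at 35.7 ± 0.608 CPM per kb (SD, n = 3). Acad9 was lowest at 2.53 ± 0.0791 and Cpt1a next at 3.33 ± 0.473 CPM per kb. With IL-1β Acly was highest at 50.1 ± 1.49 CPM per kb, above Mdh2 at 46.5 ± 1.35. Etfb was lowest there at 1.29 ± 0.703 CPM per kb. For genes with long, rarely used exons, this scale understates the level.

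The second comparison asked what SFRP5 did to cells given IL-1β. Changes were smaller, and 0 members changed 2-fold (edgeR), against 2.21% of all genes called and at least 2-fold higher and 1.91% lower. Of the 19 fatty acid oxidation genes 6 rose, 2 fell and 11 were not called, with a median log2 fold change of 0.11. Of the 20 TCA cycle genes 2 rose, 6 fell and 12 were not called, with a median of −0.02. Idh2 and Acaa2 rose most, and Acadl, Pdhb, Pcx and Dlst fell most. Of all genes tested 15.6% were called higher, 15.7% lower and 31.3% in either direction, and the median was 0.01. With RLE scaling fatty acid oxidation had 5 genes higher and 3 lower, and the TCA cycle 2 higher and 7 lower.

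The Idh2 libraries with IL-1β + SFRP5 all lay above those with IL-1β, a 1.74-fold rise (log2 change 0.80 ± 0.12, edgeR adjusted p = 7.95e-06), and the mean of 9.34 ± 0.991 CPM was below that of control, 71.9 ± 5.21 CPM (SD, n = 3 each). For Idh1 the change was 0.14 ± 0.082, which did not pass the test (edgeR adjusted p = 0.207), and its libraries overlapped. Acaa2 rose 1.73-fold (log2 change 0.79 ± 0.14, edgeR adjusted p = 7.63e-05), also without overlap. The other fatty acid oxidation genes that rose with SFRP5 were Acsl1 (0.26 ± 0.080), Acadvl (0.24 ± 0.054), Eci2 (0.22 ± 0.074), Acadm (0.19 ± 0.071) and Echs1 (0.17 ± 0.062), with edgeR adjusted p of 0.016, 0.00141, 0.0256, 0.0457 and 0.0379. Dvl2, on the other strand of Acadvl, was also called higher with SFRP5 added (0.19 ± 0.065, edgeR adjusted p = 0.0297). Paox, on the other strand of Echs1, was not called (0.29 ± 0.16, edgeR adjusted p = 0.196). The part of reads from these 2 overlapping genes was not tested. In the TCA cycle the other gene that rose was Ogdh (0.14 ± 0.049, edgeR adjusted p = 0.0334). Cpt1a changed by 0.10 ± 0.11 and was not called (edgeR adjusted p = 0.547), although its 3 libraries with SFRP5 all lay just above those with IL-1β. Over both pathways the libraries of the 2 groups did not overlap for 20 of the 39 members, 12 higher and 8 lower with SFRP5, against 40.8% of all genes tested, 20.5% higher and 20.3% lower.

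With SFRP5 added 8 members were called lower than with IL-1β alone, and each of them was called higher with IL-1β than in control. Acadl changed by −0.32 ± 0.067 on the log2 scale, Pdhb by −0.31 ± 0.056, Pcx by −0.31 ± 0.056 and Dlst by −0.30 ± 0.047 (edgeR adjusted p = 0.000482, 9.9e-05, 8.73e-05 and 1.76e-05). In each of these 4 genes every library with SFRP5 lay below every library with IL-1β alone. The others that fell were Mdh2 (−0.25 ± 0.048), Dld (−0.17 ± 0.045), Hadha (−0.17 ± 0.042) and Acly (−0.14 ± 0.040), with edgeR adjusted p of 0.000247, 0.00464, 0.00296 and 0.0119. The comparison with IL-1β alone and that of IL-1β with control share the IL-1β libraries. A gene with high values in those libraries therefore tends to fall in the first and rise in the second, whatever SFRP5 does. A gene with low values there tends to do the reverse. Each member called higher with SFRP5 added was called lower with IL-1β than in control, so the same limit applies to the rises. It also applies to the related genes below.

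The smaller of these calls depended on the analysis and on the libraries used. By the analysis used, Acadm was not called with RLE factors (adjusted p = 0.0569), DESeq2 (0.111), no low-count filter (0.0841) or the 6 libraries compared (0.0577). Echs1 was not called with DESeq2 (0.096), no low-count filter (0.069) or the 6 libraries compared (0.0646), Ogdh not with DESeq2 (0.0663) or no low-count filter (0.0575), and Eci2 not with DESeq2 (0.0548). Cs and Etfdh were called lower with RLE factors (0.047 and 0.0456). The number of members called higher, 8, was 5 without IL-1β + SFRP5 library 1 or 2 or IL-1β library 1, and 4 without IL-1β library 3. Of fatty acid oxidation genes 3 in place of 6 were called higher without IL-1β library 1 or 3, and of TCA cycle genes 1 in place of 2 without IL-1β + SFRP5 library 1 or 2 or IL-1β library 3. Adjusted p reached 0.115 for Acsl1 without IL-1β + SFRP5 library 3 and 0.0735 without IL-1β library 3. For Eci2 it was 0.129 without IL-1β + SFRP5 library 3, and 0.0632 and 0.135 without IL-1β library 1 and 3. Acadm had 0.113 and 0.126 without IL-1β + SFRP5 library 1 and 2, 0.116 and 0.164 without IL-1β library 1 and 2, and 0.0563 and 0.0535 without control library 2 and 3, which are not in this comparison and left its log2 change at 0.19. Echs1 had 0.113 and 0.0768 without IL-1β + SFRP5 library 1 and 2, 0.155 and 0.129 without IL-1β library 1 and 3, and 0.0512 without control library 2. For Ogdh it was 0.0956 and 0.084 without IL-1β + SFRP5 library 1 and 2, and 0.154 without IL-1β library 3. Acly lost its call without IL-1β + SFRP5 library 2 (0.0732) or IL-1β library 1 (0.0663), and Dld without IL-1β + SFRP5 library 1 (0.0504). Calls appeared for Cs without IL-1β library 3 (0.0215), for Idh3b without IL-1β library 2 (0.0395) and for Etfdh without IL-1β + SFRP5 library 3 (0.0158) or IL-1β library 3 (0.0298). The calls for Idh2, Acaa2, Acadvl, Acadl, Pdhb, Pcx, Dlst, Mdh2 and Hadha held in each of the 9 fits that left out 1 library.

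The third comparison set cells with IL-1β and SFRP5 against control, and it shares libraries with both comparisons above. Of the 19 fatty acid oxidation genes 12 fell, 2 rose and 5 were not called, with a median of −0.44, and of the 20 TCA cycle genes 10 fell, 5 rose and 5 were not called, with a median of −0.14. Among all genes 39% were called lower, 37.3% higher and 76.3% in either direction, with a median of −0.02. With upper-quartile scaling the split was 15 lower and 1 higher for fatty acid oxidation and 12 lower and 3 higher for the TCA cycle. Idh2 was 7.65-fold lower than in control (log2 change −2.94 ± 0.083, edgeR adjusted p = 6.33e-21) and Idh1 5.73-fold lower (−2.52 ± 0.066, edgeR adjusted p = 1.24e-21). Cpt1a was at −0.93 ± 0.10 and Acaa2 at −1.01 ± 0.12 on the log2 scale (edgeR adjusted p = 3.29e-09 and 1.82e-08). Acly, Acadl and Dlst were higher than in control, by 0.74 ± 0.041, 0.63 ± 0.070 and 0.59 ± 0.048 (edgeR adjusted p = 1.11e-14, 1.12e-08 and 2.72e-11). Pcx and Pdhb did not pass the test against control, at −0.049 ± 0.056 and 0.041 ± 0.056 (edgeR adjusted p = 0.43 and 0.513). Acadm was not called either, at −0.022 ± 0.068 (edgeR adjusted p = 0.78), and Cs was lower, at −0.17 ± 0.046 (edgeR adjusted p = 0.0016). IL-1β + SFRP5 and control libraries did not overlap for 31 members, 8 higher and 23 lower, against 78.2% of all genes, 38.2% higher and 40% lower.

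Against control, the side of the threshold changed for 3 members when 1 library was left out. Etfdh, higher with IL-1β + SFRP5 at 0.21 ± 0.067 (edgeR adjusted p = 0.0071), was not called without IL-1β + SFRP5 library 3 (0.0577) or control library 1 (0.0622). Without either, 1 fatty acid oxidation gene in place of 2 was called higher. Fh1, not called at 0.14 ± 0.063 (edgeR adjusted p = 0.0536), was called without IL-1β + SFRP5 library 3 (0.0179), any 1 of the IL-1β libraries (0.0226 to 0.027) or control library 3 (0.0131), and also with RLE factors (0.0356), no low-count filter (0.0404) and the 6 libraries compared (0.0324). Acad9, not called at −0.16 ± 0.092 (edgeR adjusted p = 0.125), was called without IL-1β + SFRP5 library 3 (0.0291). With upper-quartile scaling Etfdh, Dld and Mdh2 were no longer called higher (edgeR adjusted p = 0.31, 0.203 and 0.97), and Acadm, Acad9, Hadhb, Dlat and Pcx were called lower (0.041, 0.00596, 0.00744, 0.0016 and 0.00417).

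Genes around the 2 pathways were taken from 9 lists made by function, whose counts were not recomputed under other scalings. Of all genes tested 38.5% were called higher and 40.4% lower with IL-1β, and 15.6% higher and 15.7% lower with SFRP5 added. Over the 114 tested genes of the lists, 31 were higher and 60 lower with IL-1β, and 25 higher and 11 lower with SFRP5 added. Of 12 genes for the control of pyruvate dehydrogenase, pyruvate import and lactate, 5 rose and 5 fell with IL-1β, near the shares of all genes (38.5% and 40.4%). Pdk1 and Pdk3, kinases that switch pyruvate dehydrogenase off, reached 406 ± 6.65 and 126 ± 1.53 CPM with IL-1β, against 90.4 ± 2.46 and 39.7 ± 1.15 CPM in control (SD, n = 3 each; edgeR adjusted p = 1.22e-24 and 8.26e-21). Ldha, the lactate dehydrogenase subunit that favours lactate formation, was 4.48-fold higher and Ldhb, its counterpart, 5.1-fold lower (edgeR adjusted p = 7.47e-27 and 2.21e-19). With SFRP5 added, Ldhb and Pdk3 rose by 0.41 ± 0.093 and 0.29 ± 0.044 on the log2 scale (edgeR adjusted p = 0.0013 and 9.42e-06), and the other 10 were not called.

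Of 13 other TCA cycle enzymes and their assembly or lipoylation factors 7 fell with IL-1β and 1 rose. Over all genes tested these shares were 40.4% and 38.5%. Sdhb, the iron-sulfur subunit of succinate dehydrogenase, was at 26.7 ± 1.27 CPM with IL-1β and 61.7 ± 3.002 CPM in control (edgeR adjusted p = 2.14e-15). Ogdhl and Dhtkd1, relatives of Ogdh, and Lipt2, of lipoic acid attachment, changed by −1.69 ± 0.17, −1.46 ± 0.16 and −1.38 ± 0.29 on the log2 scale (edgeR adjusted p = 2.01e-09, 8.75e-09 and 0.00013). With SFRP5 added 3 fell and 0 rose (edgeR), against 15.7% and 15.6% of all genes. Among those that fell was the succinate dehydrogenase subunit Sdhc at −0.22 ± 0.053 on the log2 scale (edgeR adjusted p = 0.00234). Of 6 tested mitochondrial carriers of citrate, malate, glutamate and aspartate 4 fell with IL-1β and 0 rose (edgeR). These were Slc25a10 (−1.51 ± 0.13), Slc25a11 (−0.96 ± 0.057), Slc25a13 (−0.73 ± 0.15) and Slc25a12 (−0.54 ± 0.060), with edgeR adjusted p of 7.07e-11, 4.23e-14, 0.000126 and 1.03e-08. With SFRP5 added 3 of the 6 carriers rose and 1 fell, against 15.6% and 15.7% of all genes. Slc25a13 fell (−0.87 ± 0.18, edgeR adjusted p = 0.000564), and Slc25a12 was among those that rose (0.20 ± 0.062, edgeR adjusted p = 0.0156).

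Among side reactions of the cycle 5 of 13 tested genes rose with IL-1β and 6 fell, near the shares of all genes (38.5% and 40.4%). Gls2, a glutaminase that supplies glutamate, had 111, 108 and 109.8 CPM in the IL-1β + SFRP5 libraries, 98.7, 97.4 and 90.7 CPM in the IL-1β libraries and 0.253, 0.361 and 0.508 CPM in the control libraries. It was high in every library with IL-1β and close to the limit of detection in control. Me2, the mitochondrial malic enzyme that links NAD, was 6.58-fold higher (edgeR adjusted p = 2.06e-25). Me3, the mitochondrial NADP-linked malic enzyme, had 2.86, 3.06 and 2.36 CPM in the IL-1β + SFRP5 libraries, 1.15, 1.15 and 0.797 CPM in the IL-1β libraries and 8.03, 9.08 and 8.94 CPM in the control libraries. It was lowest with IL-1β, 8.39-fold below control, and 2.67-fold higher with SFRP5 than with IL-1β alone (edgeR adjusted p = 4.05e-13 and 4.69e-05). Pck2, the mitochondrial enzyme that makes phosphoenolpyruvate from oxaloacetate, was 2.65-fold lower with IL-1β (edgeR adjusted p = 1.24e-19). With SFRP5 added 5 of these genes rose and 1 fell, against 15.6% and 15.7% of all genes. D2hgdh, which oxidises 2-hydroxyglutarate, rose by 0.29 ± 0.10 (edgeR adjusted p = 0.0391). Acod1, which makes itaconate from aconitate in activated macrophages, was named after its values were seen: it had too few counts to be tested, with 1, 1 and 1 counts in the IL-1β + SFRP5 libraries, 9, 18 and 12 in the IL-1β libraries and 0 in each control library.

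**Figure D4:**
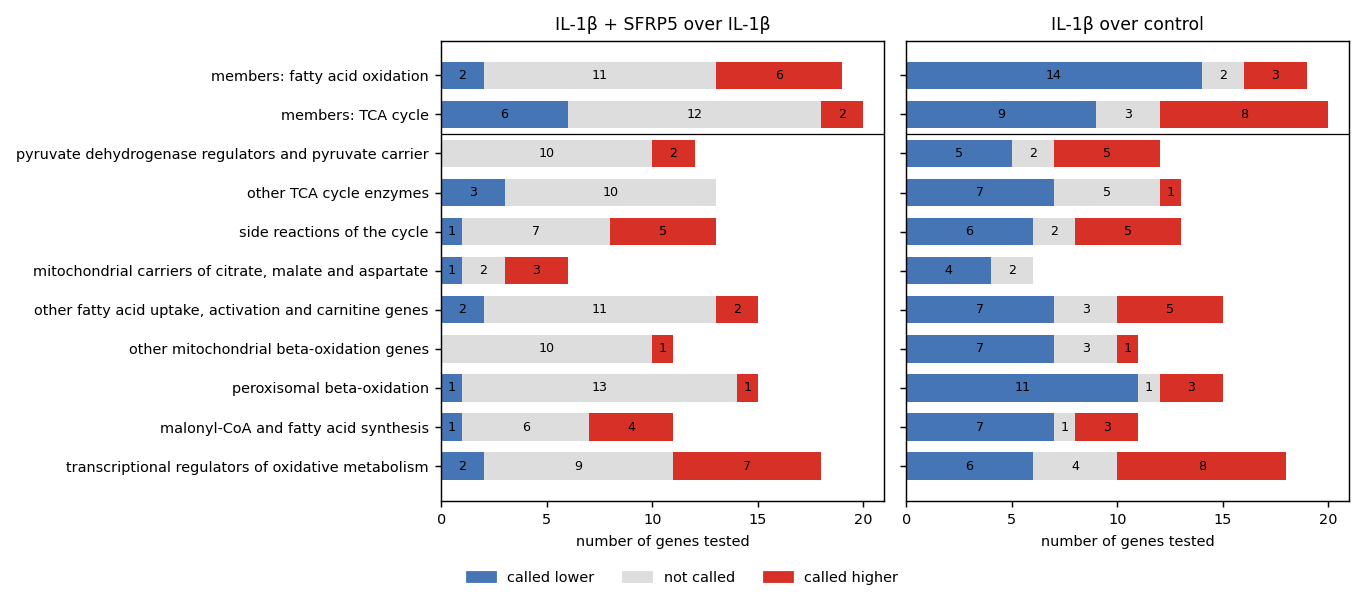
Number of tested genes called lower (blue), not called (grey) and called higher (red) for the members of each pathway and for 9 lists of related genes (rows), for IL-1β + SFRP5 over IL-1β and IL-1β over control. With IL-1β, 11 of 15 genes of peroxisomal β-oxidation and 14 of 19 fatty acid oxidation members were lower. Lower were also 9 of 20 TCA cycle members and 6 of 18 regulators, against 40.4% of all genes tested.

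Fatty acid genes outside the members were on 4 lists. For peroxisomal β-oxidation, which shortens the longest chains, 11 of 15 fell and 3 rose with IL-1β, against 40.4% and 38.5% of all genes, with a median of −0.86. Acox2, an oxidase for branched chains and bile acid precursors, was 5.47-fold lower with IL-1β (edgeR adjusted p = 1.29e-16) and 1.7-fold higher with SFRP5 added (edgeR adjusted p = 4.56e-05). Acaa1b, a peroxisomal thiolase, had 0.0986, 0.26 and 0.236 CPM in the IL-1β + SFRP5 libraries, 0.0608, 0.182 and 0.0569 CPM in the IL-1β libraries and 2.63, 3.07 and 2.29 CPM in the control libraries. Abcd2 and Abcd3 carry fatty acids into the peroxisome: Abcd2 averaged 0.279 ± 0.099 CPM with IL-1β and 2.6 ± 0.0273 CPM in control, whereas Abcd3 averaged 192 ± 2.54 CPM with IL-1β and 64.1 ± 1.11 CPM in control (edgeR adjusted p = 2.77e-08 and 2.81e-21). With SFRP5 added 1 of the 15, Acox2, rose and 1, Abcd3, fell, against 15.6% and 15.7% of all genes. The change of Abcd3 was −0.36 ± 0.041 on the log2 scale (edgeR adjusted p = 1.95e-07).

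Of 15 tested genes for uptake, activation and carnitine transfer 7 fell with IL-1β and 5 rose, near the shares of all genes (40.4% and 38.5%). The fatty acid receptor Cd36 and the binding protein Fabp3 were lower, at −2.44 ± 0.39 and −1.67 ± 0.34, and the synthetases Acsl4 and Slc27a4 rose by 1.52 ± 0.061 and 1.48 ± 0.049 on the log2 scale (edgeR adjusted p = 3.89e-06, 9.36e-05, 9.08e-18 and 1.77e-19). With SFRP5 added 2 rose and 2 fell, against 15.6% and 15.7% of all genes. Among them were the thioesterase Acot2 at 0.40 ± 0.062 and the adipocyte marker Fabp4 at −0.63 ± 0.15 (edgeR adjusted p = 1.7e-05 and 0.00207). Of 11 tested other genes linked to mitochondrial β-oxidation 7 fell with IL-1β and 1 rose, against 40.4% and 38.5% of all genes. Ivd, which acts in leucine breakdown, changed by −1.62 ± 0.078, Hint2 by −0.87 ± 0.14 and Etfbkmt, a methyltransferase for Etfb, by −0.86 ± 0.34, and Acad10 rose by 0.49 ± 0.13 (edgeR adjusted p = 4.77e-16, 2.92e-06, 0.0246 and 0.00123). Ivd was the 1 gene of this list called with SFRP5 added, against 31.3% of all genes called in either direction. It rose by 0.42 ± 0.085 (edgeR adjusted p = 0.000408).

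Most genes of fatty acid synthesis were lower while Acly, at its start, was higher. Of 11 tested genes of malonyl-CoA and fatty acid synthesis 7 fell with IL-1β and 3 rose, against 40.4% and 38.5% of all genes. Acaca, which makes malonyl-CoA, the inhibitor of Cpt1a, was at 45.1 ± 2.13 CPM with IL-1β + SFRP5, 32.2 ± 1.03 CPM with IL-1β and 147 ± 1.99 CPM in control (SD, n = 3 each). It was 4.57-fold lower with IL-1β (edgeR adjusted p = 6.68e-23) and 1.4-fold higher with SFRP5 than with IL-1β alone (edgeR adjusted p = 1.13e-07). Fasn, the fatty acid synthase, and Scd1, a desaturase, were 3.56-fold and 3.71-fold lower with IL-1β (edgeR adjusted p = 4.4e-20 and 1.68e-20). Elovl6, a fatty acid elongase, had 3.5, 3.71 and 3.07 CPM in the IL-1β + SFRP5 libraries, 6.38, 5.81 and 6.38 CPM in the IL-1β libraries and 44.9, 44.2 and 44.5 CPM in the control libraries. It was lower with IL-1β than in control and lower again with SFRP5, without overlap (edgeR adjusted p = 2.73e-20 and 8.02e-06). With SFRP5 added 4 genes of this list rose and 1 fell, against 15.6% and 15.7% of all genes.

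Among 18 tested regulators of oxidative metabolism 8 rose with IL-1β and 6 fell, near the shares of all genes (38.5% and 40.4%). Ppard, a nuclear receptor for fatty acids, was at 252 ± 7.91 CPM with IL-1β and 36.7 ± 1.69 CPM in control (SD, n = 3 each; edgeR adjusted p = 2.22e-25). Klf15, a transcription factor known in muscle and liver for fatty acid and amino acid use, had 12.4, 13.5 and 14.2 CPM in the IL-1β + SFRP5 libraries, 6.44, 6.3 and 6.95 CPM in the IL-1β libraries and 26.6, 25.6 and 26.2 CPM in the control libraries. Control libraries were the highest and IL-1β libraries the lowest, with a log2 change of −1.99 ± 0.094 for IL-1β over control and 1.02 ± 0.10 for IL-1β + SFRP5 over IL-1β (edgeR adjusted p = 3.51e-16 and 1.67e-08). Rxra, the partner of the PPAR receptors, and Pprc1, a coactivator of the PGC-1 family, fell with IL-1β, at −1.57 ± 0.053 and −1.66 ± 0.084 (edgeR adjusted p = 2.94e-19 and 1.55e-15). With SFRP5 added 7 regulators rose and 2 fell, against 15.6% and 15.7% of all genes, and Pparg, the nuclear receptor of fat cells, rose by 0.70 ± 0.20 at a mean of 3.74 CPM with IL-1β + SFRP5 and 2.3 CPM with IL-1β (edgeR adjusted p = 0.0101).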

How the data were processed

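The authors deposited gene counts as whole numbers in 1 table for 9 libraries, without scaling between libraries. Per the labels' protocols, 150 bp paired-end reads of a directional library kit were trimmed with fastp, aligned to mouse mm10 with STAR and quantified with RSEM. RSEM divides reads that match several genes. How the counts were rounded and the strand setting are not given in the sources used here. If reads were counted without strand, those of genes overlapping on opposite strands cannot be told apart. Each column was assigned to a sample from the letter that opens its name and its final digit. Gene positions in the table are not those of the mm10 annotation used here, so coordinates are given only for the RefSeq promoter windows (GRCm38.p6), which 35 of the 39 members had. The listed gene length, a deposited value of another unit (bases), had a median ratio of 1 to the exon length in GENCODE M21.

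Genes were kept by edgeR's filterByExpr (15502 of 56748) and tested with edgeR 4.0.16 (R 4.3.3), by its quasi-likelihood test with TMM factors and 1 fit over the 9 libraries, adjusted by Benjamini-Hochberg over all genes tested. CPM are relative to TMM-corrected library sizes, and the SE is the log2 change divided by the root of its F statistic. The common biological coefficient of variation was 4.97%, and libraries of a group differed by more than sampling noise (chi-square of 2.2 to 4.81 per gene). The fit was tested on simulated counts. Values in every library are given for the highest and lowest member of each role, members not called with IL-1β, the 6 largest called changes with SFRP5, and Cpt1a, Cs, Idh1, Acly and Pcx. From the other lists up to 4 genes with the largest called changes with IL-1β and 2 with SFRP5 are named; 1 gene that this rule names is not reported here. Members and lists were chosen with earlier results of these data known. Alternatives were RLE and upper-quartile factors, DESeq2 1.42.0, no low-count filter, robust dispersions, the 6 libraries compared, a replicate block and leaving out each library.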

Additional observations from a re-analysis of the deposited data

How the results depend on the processing

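Of 117 log2 changes of members, 3 for each gene, 112 kept their direction and side of the threshold with RLE factors, 112 with DESeq2, 112 without the low-count filter, 113 with only the 6 libraries compared, 117 with robust dispersions and 98 with upper-quartile factors, which moved the median of all genes by −0.15 for IL-1β over control and −0.13 for IL-1β + SFRP5 over control. For IL-1β + SFRP5 over IL-1β, the 8 members called higher became 4 with DESeq2 and 5 without the low-count filter, and 4 to 8 when 1 library was left out. For IL-1β + SFRP5 over control, the 7 called higher became 4 with upper-quartile factors. Of the pathway counts for IL-1β + SFRP5 over IL-1β, the 6 fatty acid oxidation genes called higher became 3 with DESeq2 and 3 to 6 when 1 library was left out, and the 2 TCA cycle genes became 1 with DESeq2, 1 without the low-count filter and 1 to 2 when 1 library was left out. For IL-1β + SFRP5 over control, the 2 fatty acid oxidation genes called higher became 1 with upper-quartile factors and 1 to 2 when 1 library was left out, and the 5 TCA cycle genes became 3 with upper-quartile factors. The cause of these differences was not tested. The remaining counts of members called, over both pathways and for each, stayed within 1.5 times under each alternative run.

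All 36 reversals were of changes that were called in neither fit. For IL-1β + SFRP5 over control, Cpt2 became 0.0093 with RLE factors, 0.0085 with DESeq2, 0.018 without the low-count filter and 0.012 with the 6 libraries compared. With upper-quartile factors Hadha became −0.088, Pdhb −0.093 and Sucla2 −0.085 in the same comparison, and Sucla2 −0.12 for IL-1β over control. Leaving out each library in turn gave −0.048 to 0.038 for Cpt2, −0.066 to 0.0032 for Cs, −0.049 to 0.062 for Hadhb and −0.013 to 0.078 for Sucla2 for IL-1β over control. For IL-1β + SFRP5 over IL-1β it gave −0.043 to 0.106 for Cpt2, −0.057 to 0.061 for Dlat, −0.246 to 0.037 for Eci1, −0.064 to 0.0064 for Fh1, −0.098 to 0.012 for Hadhb, −0.040 to 0.0079 for Idh3a, −0.033 to 0.074 for Idh3g, −0.010 to 0.067 for Sucla2 and −0.101 to 0.030 for Suclg2. For IL-1β + SFRP5 over control it gave −0.064 to 0.011 for Acadm, −0.068 to 0.098 for Cpt2 and −0.077 to 0.024 for Pcx.

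The libraries showed no sign of pairing by the replicate numbers in the titles, which does not exclude a paired design with small shared effects. Deviations from the group mean correlated with r of −0.04 to 0.04 between libraries of the same number and −0.04 to 0.06 between others, and in 4 of 18 cases a library correlated best with its own number. With the replicate number as a block 34, 16 and 29 members were called for IL-1β over control, IL-1β + SFRP5 over IL-1β and IL-1β + SFRP5 over control, the same counts as without it, and 0 of 117 calls changed. Etfb, with 17 to 116 counts in a library, was the member whose precision depth limited most.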
